A study of Mus musculus with 11 samples.

Results

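Cd36, Lpl, Fabp1, Apoa1, Apoa4, Apob and Slc16a7 were followed in the mouse stomach: 7 genes of lipid uptake, lipoproteins and monocarboxylate transport, out of 22180 genes measured. They were chosen by name, mainly because isolated parietal cells, the acid-secreting cells of the gastric gland, gave them high signal relative to the other stomach cells. Their changes with the drugs were also known when they were chosen. Where a gene had several probe sets, as only Lpl did here, the one with the highest whole-stomach mean was read. Total RNA from adult C57Bl/6 mice was measured on Affymetrix arrays. Whole stomachs were from mice given rapamycin plus tamoxifen (n = 2), tamoxifen (n = 2), rapamycin (n = 3) or sunflower oil as the vehicle (n = 2). Injections were intraperitoneal and daily: 3 days of tamoxifen (5 mg per 20 g body weight) and 10 days of rapamycin (0.6 mg per 20 g body weight), per the labels. A further array each held isolated parietal cells and the cells left after their removal, from mice for which no drug is named. All were of 1 strain, with no transgene or Cre line named, so tamoxifen acted here as a drug; the labels give no sex or exact age. Replicates are labelled biological, but not as 1 mouse each, so p-values measure the spread between these samples.

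Cells take up fat by a chain of steps. Lipoprotein lipase (Lpl) releases fatty acids from triglyceride-rich lipoproteins at the vessel wall, the membrane protein CD36 helps them across the plasma membrane, and fatty acid binding proteins such as FABP1, known best from liver and intestine, carry them in the cytosol. Apolipoproteins carry fat through blood: APOB is the structural protein of chylomicrons and very low density lipoproteins, APOA1 is the main protein of high density lipoproteins, and APOA4 rides on chylomicrons; liver and intestine are their classical sources. Slc16a7 encodes the monocarboxylate transporter MCT2, which carries lactate, pyruvate and ketone bodies rather than lipid. Parietal cells are rich in mitochondria and spend much energy on the proton pump.

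The 2 arrays of separated cells show where these transcripts lay in mice for which no drug is named. The parietal-cell array read 9.46 for Cd36 against 2.86 in the other cells, in log2 units, a difference of 6.59 that ranked 2 from the top among 22180 genes. For Fabp1 it read 8.62 against 2.68 (difference 5.93, rank 6), and for Apoa4 9.74 against 4.09 (5.65, rank 8). Slc16a7 read 10.69 against 5.35 (5.34, rank 12), Lpl 8.80 against 3.52 (5.28, rank 13) and Apoa1 10.70 against 5.83 (4.88, rank 21). The smallest of these 6 differences, that of Apoa1, was 29.4-fold. The second Lpl probe set read 10.20 against 5.19 (difference 5.01). In the other cells Cd36, Fabp1 and Lpl lay below that array's median of 3.68, and signal over background is not given, so their differences may be lower bounds and the ranks are approximate.

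Apob went the other way: it read 3.77 in parietal cells and 6.62 in the other cells, a difference of -2.85, against the description of the 7 as genes of parietal cells. It is kept because the genes were listed by name. A difference of 2 log2 units or more toward parietal cells was found in 1.3% of all genes, and one toward the other cells in 2.05%; since the genes were chosen on this difference, nothing is read from their count. With 1 array per fraction there is no replicate check and no test.

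**Figure D1:**
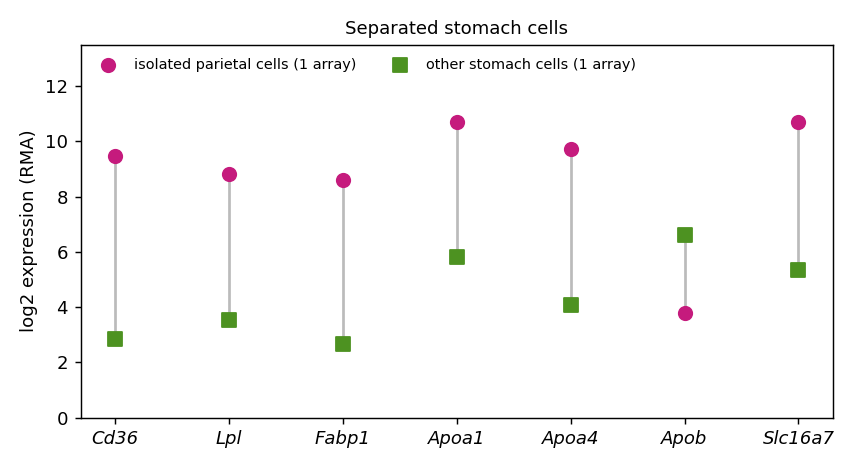
Log2 expression of the 7 genes on the array of isolated parietal cells (circles) and of the other stomach cells (squares), 1 array each, joined by a line per gene. Of the 7 genes 6 are higher in parietal cells, by 4.88 (Apoa1) to 6.59 (Cd36) log2 units, and Apob is lower, at -2.85.

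The labelled cell type was checked against 15 parietal-cell markers. Of these, 12 exceeded a difference of 2 in favour of the parietal fraction, and the median of the 15 was 3.23. The proton pump genes Atp4a and Atp4b stood 4.55 and 3.86 higher. Short of 2 were Ptger3 (1.44), Aqp4 (0.57) and Car2 (-0.23). Markers of other cells that can make these transcripts differed little in median: -0.19 for the adipocyte list, 0.01 for the hepatocyte list and 0.09 for the endothelial list. The adipocyte mean (3.22 in parietal cells, 3.39 in the other cells) and the endothelial mean (3.25 and 3.13) lay below the array medians. Little can be read from differences between such low signals. The hepatocyte genes, 4 of 8 positive, ran from -0.38 (Ahsg) to 1.39 (Alb). The enterocyte list had a median of -0.24, with 4 of 11 genes at least 2 lower in parietal cells: Fabp2 (-4.79), Vil1 (-3.75), Anpep (-3.42) and Dpp4 (-2.07), named after their values were seen. The other 7 differed by -0.26 (Alpi) to 0.52 (Lct). Pit mucous cell markers had a median of -1.51 and chief-cell markers of -1.72. Still, the parietal array read 11.73 for the pit gene Gkn1 and 10.67 for the chief-cell gene Pgc. The other-cell array read 8.03 for Atp4a and 8.74 for Atp4b. These 4 genes were named after their values were seen. Neither fraction was shown to be free of the other's cells, so a level in it is not that of 1 cell type. Array medians were 3.67 and 3.68 in the fractions and 4.95 to 5.09 in whole stomach, so no level is compared across them.

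Promoter sequence was at hand for 5 of the 7 genes in RefSeq's GRCm38.p6 table: Cd36, Fabp1, Apoa1, Apoa4 and Apob. The 250 bases before the annotated start are printed for the 4 of these that were higher on the parietal-cell array, to show what precedes genes that were high in the same fraction. They are Cd36 (chr5:17835897-17836146, minus strand), Fabp1 (chr6:71199629-71199878, plus strand), Apoa1 (chr9:46228380-46228629, plus strand) and Apoa4 (chr9:46240594-46240843, plus strand). Capitals mark the nuclear receptor element AGGTCA, on either strand (TGACCT when read on the other), and the TATA box TATAAA.
Cd36 promoter: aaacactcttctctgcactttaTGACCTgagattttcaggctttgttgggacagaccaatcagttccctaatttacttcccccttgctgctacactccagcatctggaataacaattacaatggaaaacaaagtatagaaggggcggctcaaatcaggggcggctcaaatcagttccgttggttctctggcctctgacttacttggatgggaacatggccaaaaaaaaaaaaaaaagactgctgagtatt
Fabp1 promoter: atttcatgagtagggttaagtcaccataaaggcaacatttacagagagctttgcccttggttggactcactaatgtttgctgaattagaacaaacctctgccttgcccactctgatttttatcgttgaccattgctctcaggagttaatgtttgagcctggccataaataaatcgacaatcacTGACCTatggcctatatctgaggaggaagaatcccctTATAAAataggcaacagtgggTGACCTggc
Apoa1 promoter: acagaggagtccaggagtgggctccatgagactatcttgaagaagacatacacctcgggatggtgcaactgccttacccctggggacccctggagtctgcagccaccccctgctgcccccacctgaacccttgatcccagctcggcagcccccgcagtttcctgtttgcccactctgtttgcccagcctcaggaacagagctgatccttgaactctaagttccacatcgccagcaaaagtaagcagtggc
Apoa4 promoter: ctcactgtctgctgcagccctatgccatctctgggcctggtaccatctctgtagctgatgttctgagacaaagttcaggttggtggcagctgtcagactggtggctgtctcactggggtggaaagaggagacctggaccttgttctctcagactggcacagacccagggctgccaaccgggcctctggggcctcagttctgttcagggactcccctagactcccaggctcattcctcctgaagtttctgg
The element AGGTCA occurred in the windows of Cd36 and Fabp1, 2 of 5 searched, against 14% of 32851 promoter windows of this length. TATAAA occurred in Fabp1, 30 bases before the start, and in Apob, against 12.4% of windows. The DR1 motif (AGGTCA repeated after 1 base), the HNF4 motif CAAAGTCCA and the palindromic HNF1 motif occurred in 0 of 5, against 0.0335%, 0.384% and 0.00913% of windows. Both strands were searched, and a match describes letters only. The windows of Apoa1 and Apoa4 held no match to any of them.

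The first comparison, tamoxifen against vehicle, measures the response to a drug that is known to injure parietal cells at high dose. Of the 7 genes, 4 fell (limma, Benjamini-Hochberg adjusted p over all genes under 0.05) and 0 rose, where 1.72% of all genes were called and 0.784% were called lower. The median change of the 7 was -1.73 log2 units, against -0.02 for all genes. As these changes were known when the genes were chosen, the contrast with all genes only describes them, here and in the comparisons below. The uptake genes Cd36 and Lpl, the apolipoprotein gene Apoa4 and the transporter gene Slc16a7 were the genes called. In 5 of the 7 genes both tamoxifen arrays lay below both vehicle arrays, as in 13.9% of all genes. In whole stomach, fewer parietal cells and less RNA per parietal cell cannot be told apart.

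Cd36 read 8.25 and 8.15 in the tamoxifen stomachs, against 10.11 and 9.75 in the vehicle stomachs. The groups lay far apart and each was tight. The change was -1.73 ± 0.19 (limma standard error, adjusted p = 0.00687), a 3.32-fold lower level. Lpl read 7.65 and 8.23 with tamoxifen, against 10.55 and 10.18 with vehicle. Again the groups lay apart, with a change of -2.43 ± 0.23 (adjusted p = 0.00379, 5.37-fold lower). Its second probe set read 4.59 and 5.31 with tamoxifen, against 7.004 and 6.986 with vehicle, a change of -2.05 ± 0.21 (adjusted p = 0.00651 over probe sets).

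Apoa4 read 7.13 and 8.01 with tamoxifen, against 10.19 and 10.51 with vehicle, a change of -2.78 ± 0.29 (adjusted p = 0.0065, 6.89-fold). No other gene of the 7 changed by more, and it ranked 13 from the bottom of all genes. Apoa1 read 8.41 and 9.87, against 10.69 and 11.23. Its groups did not overlap either, but its tamoxifen arrays differed by more than a log2 unit, and its change of -1.82 ± 0.43 did not pass (adjusted p = 0.0836). Without tamoxifen 2 Apoa1 did pass, at -2.55 (adjusted p = 0.0163).

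Slc16a7 read 9.23 and 9.88 with tamoxifen, against 11.08 and 11.13 with vehicle, with a change of -1.55 ± 0.22 (adjusted p = 0.0141, 2.92-fold). Its call was lost without vehicle 1 (-1.58, adjusted p = 0.0631) or vehicle 2 (-1.52, adjusted p = 0.0586). Fabp1 read 4.55 and 5.25, against 5.03 and 5.11, with groups that overlapped and a change of -0.17 ± 0.27 (adjusted p = 0.954; 95% interval -0.78 to 0.44). Its probe set was dim: its whole-stomach mean of 4.78 lay under the median of every whole-stomach array, and the filter on dim genes removed it, leaving 6 of the 7 genes. Apob read 8.42 and 6.80, against 6.84 and 7.46, a change of 0.46 ± 0.53 (adjusted p = 0.912). Fitted on these 4 arrays alone, limma called 0 genes of all tested, though 1318 had an unadjusted p under 0.05; adjusted p was 0.194 for Lpl and Apoa4, 0.207 for Cd36 and 0.289 for Slc16a7.

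**Figure D2:**
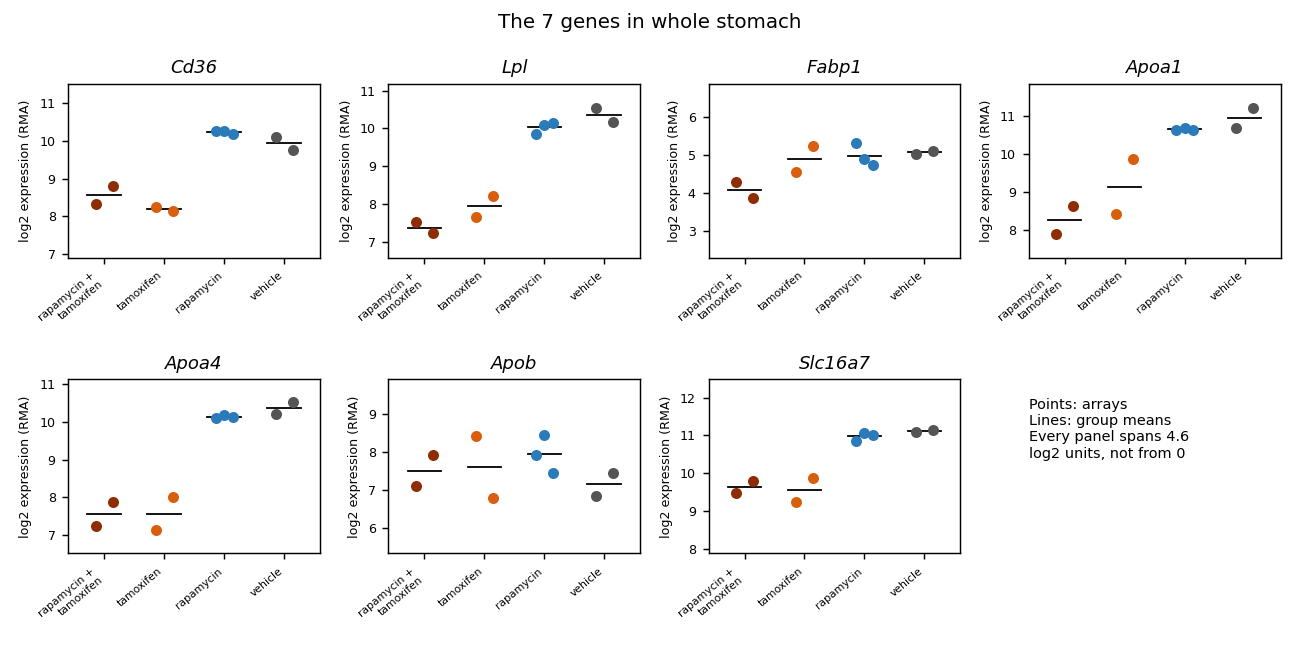
Log2 expression of each gene in whole stomach by group, with a point per array and a line at the group mean; every panel spans the same number of log2 units and does not start at 0. In Cd36, Lpl, Apoa1, Apoa4 and Slc16a7 every array with tamoxifen, with or without rapamycin, lies below every array without it, while Fabp1 and Apob overlap between tamoxifen and vehicle.

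Rapamycin plus tamoxifen against rapamycin asks what tamoxifen does in stomachs that also had rapamycin, which blocks the kinase complex mTORC1. It shares no array with tamoxifen against vehicle. Here 5 of the 7 genes fell and 0 rose, with 2.45% of all genes called and 1.32% called lower. The median change was -1.68, against -0.01 for all genes. The same 4 genes were called as with tamoxifen alone, and Apoa1 with them.

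Cd36 read 8.32 and 8.80 in the combined stomachs, against 10.26, 10.27 and 10.18 in the rapamycin stomachs (-1.68 ± 0.17, adjusted p = 0.00353, 3.20-fold lower). Lpl read 7.54 and 7.22, against 9.86, 10.08 and 10.14 (-2.65 ± 0.21, adjusted p = 0.00138, 6.26-fold lower). The rapamycin arrays lay within 0.3 log2 units of each other in both genes. Both calls held with each of the 9 arrays left out in turn.

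Apoa1 read 7.89 and 8.62 in the combined stomachs, against 10.62, 10.69 and 10.64 with rapamycin, a change of -2.39 ± 0.39 (adjusted p = 0.0167). Apoa4 read 7.25 and 7.88, against 10.09, 10.18 and 10.13, a change of -2.57 ± 0.27 (adjusted p = 0.00362). Slc16a7 read 9.48 and 9.79, against 10.85, 11.06 and 11.01, a change of -1.34 ± 0.20 (adjusted p = 0.0104). In all 3 the groups were clearly apart. Some calls rested on single arrays: without combined array 1 Apoa4 was at -2.26 (adjusted p = 0.0554), Apoa1 at -2.03 (0.193) and Slc16a7 at -1.18 (0.142). Without combined array 2 Apoa1 was at -2.76 (adjusted p = 0.067) and Slc16a7 at -1.49 (0.065). Without rapamycin 1, 2 or 3 Apoa1 had an adjusted p of 0.0539, 0.0831 and 0.0646, and Slc16a7 of 0.0609 without rapamycin 2 and 0.0506 without rapamycin 3.

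Fabp1 read 4.29 and 3.86 in the combined stomachs, against 5.31, 4.91 and 4.73 with rapamycin. The groups did not overlap, as was so for 6 of the 7 genes in the lower direction and for 20.4% of all genes, but the change of -0.90 ± 0.25 did not pass (adjusted p = 0.114). Apob read 7.10 and 7.93, against 7.93, 8.45 and 7.44, with a change of -0.43 ± 0.48 (adjusted p = 0.814). It overlapped in both tamoxifen comparisons, and the sign of its change differed between them.

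**Figure D3:**
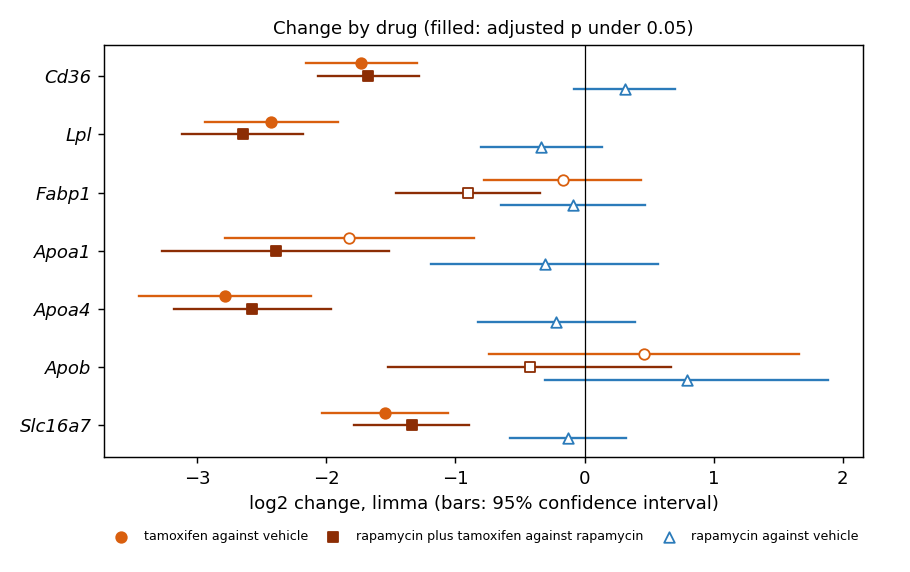
Log2 change of each gene in tamoxifen against vehicle (circles), rapamycin plus tamoxifen against rapamycin (squares) and rapamycin against vehicle (triangles), with 95% confidence intervals from limma; filled symbols have an adjusted p under 0.05. Cd36, Lpl, Apoa4 and Slc16a7 are filled in both tamoxifen comparisons, Apoa1 only in the squares, and no triangle is filled.

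Averaged over rapamycin, with all 9 arrays behind each value, tamoxifen lowered 5 of the 7 genes, where 5.85% of all genes were called and 2.61% called lower. Lpl stood at -2.54 ± 0.15 (adjusted p = 0.000142), Apoa4 at -2.68 ± 0.20 (adjusted p = 0.000369) and Cd36 at -1.70 ± 0.13 (adjusted p = 0.000369). Apoa1 stood at -2.11 ± 0.29 (adjusted p = 0.00349) and Slc16a7 at -1.44 ± 0.15 (adjusted p = 0.000851). These 5 calls held in every alternative tried, with each array left out in turn included. Fabp1 was at -0.54 ± 0.18 (adjusted p = 0.145; it passed only without tamoxifen 2, at -0.71, adjusted p = 0.0492) and Apob at 0.02 ± 0.36.

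Whether rapamycin altered the tamoxifen change was tested by the interaction, and 0 of the 7 genes passed, as 0% of all genes did in limma (627 of all genes and 0 of the 7 had an unadjusted p under 0.05). The difference between the tamoxifen changes with and without rapamycin was 0.05 for Cd36 (95% interval -0.53 to 0.63), -0.22 for Lpl (-0.91 to 0.47) and 0.21 for Apoa4 (-0.69 to 1.12). It was 0.21 for Slc16a7 (-0.45 to 0.87), -0.57 for Apoa1 (-1.88 to 0.74), -0.73 for Fabp1 (-1.56 to 0.09) and -0.88 for Apob (-2.51 to 0.74). These intervals leave room for a difference of more than 1 log2 unit in Apoa1, Apoa4, Fabp1 and Apob.

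Rapamycin alone against vehicle called 0 of the 7 genes in limma, against 0.0496% of all genes called and 0.0406% called lower; 0 of the 7 and 1977 of all genes had an unadjusted p under 0.05. Cd36 was at 0.31 ± 0.17 (95% interval -0.08 to 0.70), Lpl at -0.33 ± 0.21 (-0.80 to 0.13) and Slc16a7 at -0.13 ± 0.20 (-0.57 to 0.32). Apoa1 was at -0.31 ± 0.39, Apoa4 at -0.22 ± 0.27, Fabp1 at -0.09 ± 0.25 and Apob at 0.79 ± 0.48. In 4 of the 7 genes all rapamycin arrays lay below both vehicle arrays, by small margins, as in 14.3% of all genes. In 1, Cd36, all lay above both, as in 12.7% of all genes: it read 10.26, 10.27 and 10.18 with rapamycin, against 10.11 and 9.75 with vehicle.

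Rapamycin plus tamoxifen against tamoxifen also called 0 of the 7 genes in limma (0% of all genes, with 1257 at an unadjusted p under 0.05, Lpl and Fabp1 among them). Lpl stood at -0.56 ± 0.23 (adjusted p = 0.814) and Fabp1 at -0.82 ± 0.27 (adjusted p = 0.814). Against vehicle, the combination lowered 5 of the 7 (1.15% of all genes called, 0.735% lower). Lpl stood at -2.98 ± 0.23 (adjusted p = 0.00168), Apoa4 at -2.79 ± 0.29 (0.00709), Apoa1 at -2.70 ± 0.43 (0.0251), Slc16a7 at -1.47 ± 0.22 (0.0183) and Cd36 at -1.37 ± 0.19 (0.0144). This comparison shares its arrays with those above. Of its calls, that on Lpl held with each array left out, and 1 to 5 genes were called when an array was left out: 1 (Lpl) without combined array 1, 2 without vehicle 1 and 3 without vehicle 2, rapamycin 2 or combined array 2, with 4 or 5 without any other.

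Apoa1 and Apoa4 are close neighbours on mouse chromosome 9, with Apoc3, the gene of a lipase-inhibiting apolipoprotein, between them and Apoa5 and the zinc finger gene Zpr1 beyond. Apoa1 and Apoa4 stood 4.88 and 5.65 higher in parietal cells, and Apoc3 (-0.02), Apoa5 (0.20) and Zpr1 (0.16) were close between the fractions. Apoc3 and Apoa5 were dim, at 4.24 and 3.86 in parietal cells, where the array median was 3.67. Their whole-stomach means were 5.21 and 4.34, against array medians of 4.95 to 5.09, so a change in them could be missed. With tamoxifen Apoc3 was at 0.13 ± 0.27 (adjusted p = 0.973), Apoa5 at -0.20 ± 0.24 (0.915) and Zpr1 at 0.32 ± 0.16 (0.559). Under rapamycin, tamoxifen gave -0.60 ± 0.25 for Apoc3 (adjusted p = 0.315), -0.07 ± 0.22 for Apoa5 (0.954) and 0.07 ± 0.15 for Zpr1 (0.91). No test of the difference between neighbours was run.

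**Figure D4:**
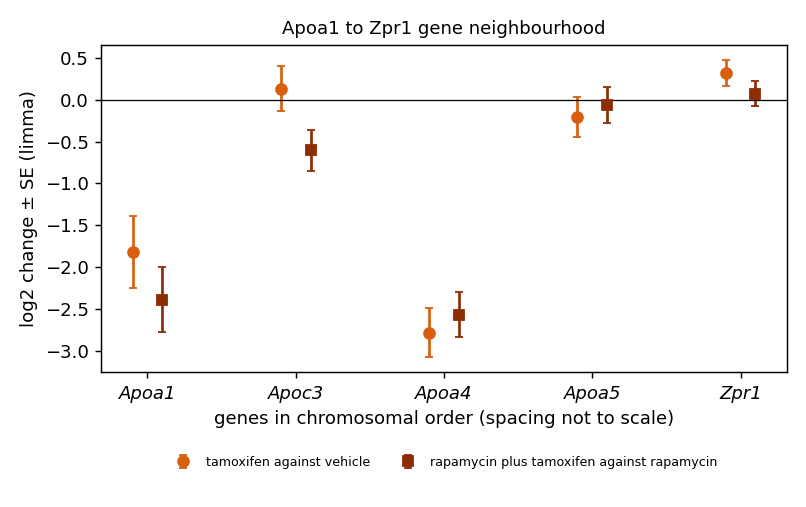
Log2 change (limma, bars are standard errors) of 5 genes in their order on chromosome 9, for tamoxifen against vehicle (circles) and rapamycin plus tamoxifen against rapamycin (squares). Apoa1 and Apoa4 lie between -1.82 and -2.78, and Apoc3, Apoa5 and Zpr1 between -0.60 and 0.32. Apoc3 and Apoa5 had whole-stomach signal near or below the array medians.

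Further genes of fatty acid and lipoprotein uptake were counted beside the 7. Of 27 measured, 1 was called lower and 0 higher in each tamoxifen comparison, with medians of 0.02 and -0.04. Over all genes 1.72% and 2.45% were called there, so little is read from so small a count. The gene called was Slc27a2, a fatty acid transporter and acyl-CoA synthetase, at -1.59 ± 0.21 with tamoxifen (adjusted p = 0.0116) and -1.37 ± 0.19 under rapamycin (adjusted p = 0.00878). Its signal in the fractions (2.89 in parietal cells and 2.50 in the other cells) lay below the array medians of 3.67 and 3.68. Where it is expressed can thus not be read from them. Gpihbp1, which anchors LPL to capillaries, was at -0.05 ± 0.18 and -0.04 ± 0.17 (adjusted p = 0.99 and 0.963). Fabp3, the heart-type binding protein gene, was high in parietal cells (difference 2.43) yet stood at 0.14 ± 0.15 and -0.11 ± 0.13 (adjusted p = 0.89 and 0.841). These last 2 genes were named after their values were seen.

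Of 23 other apolipoprotein and lipoprotein assembly genes 0 were called in either tamoxifen comparison by limma, with medians of 0.15 and -0.04. With 1.72% and 2.45% of all genes called, little is read from that count. Clu, a secreted chaperone also called apolipoprotein J, was at 0.40 ± 0.14 (adjusted p = 0.269) and 0.50 ± 0.13 (adjusted p = 0.0884). Sar1b, needed for chylomicron export, was at -0.05 ± 0.16 and -0.05 ± 0.15 (adjusted p = 0.987 and 0.943). Averaged over rapamycin, 3 of the 23 were called higher, where 5.85% of all genes were called in either direction. They were Apod, the gene of a small lipid-binding lipocalin (0.69 ± 0.16, adjusted p = 0.0395), Apoc2, whose product activates LPL (0.56 ± 0.11, 0.0229), and Clu (0.45 ± 0.09, 0.0236). Of 14 genes of monocarboxylate transport and lactate use, 1 was called lower with tamoxifen, and 1 lower and 1 higher under rapamycin. The shares of all genes called were again 1.72% and 2.45%. The lower one was Ldhb, the heart-type subunit of lactate dehydrogenase, at -1.17 ± 0.15 (adjusted p = 0.0109) and -1.27 ± 0.14 (adjusted p = 0.00396). Like Slc16a7, Ldhb was high in the parietal fraction, by 3.65. Slc16a6, a ketone body transporter in zebrafish liver, was at 0.78 ± 0.17 (adjusted p = 0.0606) and 0.86 ± 0.15 (adjusted p = 0.0246).

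Of 17 regulators known to act on lipid genes (nuclear receptors, their cofactors and the forkhead factor gene Foxa2) 0 were called in either comparison by limma, with medians of -0.12 and -0.16. With 1.72% and 2.45% of all genes called, a count of 0 among 17 says little about regulators. The oestrogen-related receptor gene Esrrg, high in parietal cells by 3.37, was at -0.01 ± 0.16 and -0.26 ± 0.14 (adjusted p = 0.999 and 0.493). Pparg was at 0.62 ± 0.30 and 0.32 ± 0.28 (adjusted p = 0.539 and 0.73). Ppargc1a, a coactivator of mitochondrial genes that stood 4.50 higher in parietal cells, was at -0.66 ± 0.29 and -0.81 ± 0.27 (adjusted p = 0.465 and 0.198), and it was named after its values were seen.

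**Figure D5:**
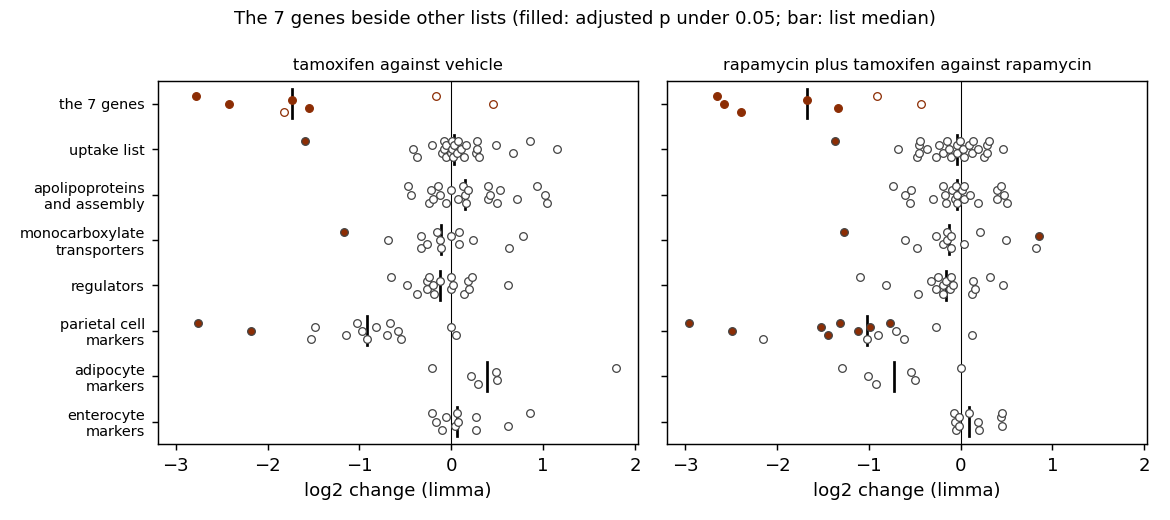
Log2 change of each gene, by list, in tamoxifen against vehicle (left) and rapamycin plus tamoxifen against rapamycin (right); filled points have an adjusted p under 0.05 and the bar is the list median. The 7 genes have medians of -1.73 and -1.68, parietal-cell markers -0.92 and -1.02, the 4 pathway lists between -0.16 and 0.15, adipocyte markers 0.39 and -0.73, and enterocyte markers 0.07 and 0.09. The 7 genes were chosen with their changes known.

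Parietal-cell markers had negative changes in 14 of 15 genes in each tamoxifen comparison. Of the 15 measured, 2 were called lower with tamoxifen and 8 under rapamycin, with medians of -0.92 and -1.02. Over all genes 0.784% and 1.32% were called lower in these comparisons. Averaged over rapamycin, 13 of the 15 were called lower, with a median of -1.02, where 2.61% of all genes were called lower. The anion exchanger gene Slc26a7 stood at -2.75 ± 0.22 and -2.96 ± 0.20 (adjusted p = 0.00205 and 0.000689) and the potassium channel gene Kcnj16 at -2.18 ± 0.17 and -2.49 ± 0.16 (adjusted p = 0.00205 and 0.000474). The proton pump gene Atp4a stood at -0.69 ± 0.21 and -0.89 ± 0.19 (adjusted p = 0.198 and 0.0516), named after its values were seen. The mean marker level was 9.01 and 9.15 in the combined arrays, 8.93 and 9.40 with tamoxifen, 10.18, 10.44 and 10.23 with rapamycin, and 10.18 and 10.19 with vehicle. Chief-cell markers moved as well, with 4 of 6 called lower with tamoxifen (median -1.40) and 3 of 6 under rapamycin (median -0.80); their mean was 9.13 and 8.90 in the combined arrays, 8.56 and 8.72 with tamoxifen, 9.84, 9.85 and 9.95 with rapamycin, and 10.16 and 10.09 with vehicle. The mean of 5 mast-cell markers was 6.92 and 7.04 in the combined arrays, 6.94 and 7.56 with tamoxifen, 6.72, 6.59 and 6.87 with rapamycin, and 8.67 and 9.22 with vehicle, so vehicle stood apart from all others in it. The part of these cell types in the results was not tested.

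Lpl and Cd36 are also made by fat and other cells, and the apolipoproteins and Fabp1 by liver, so those markers are given beside them. The mean of 6 adipocyte markers was 7.11 and 5.87 in the combined arrays, 6.49 and 5.27 with tamoxifen, 7.49, 7.55 and 6.56 with rapamycin, and 5.53 and 5.21 with vehicle. The adipocyte median change was 0.39 with tamoxifen, -0.73 under rapamycin and 1.76 for rapamycin against vehicle, with 0 of 6 called in each by limma. The part of fat in the results was not tested. The mean of 8 hepatocyte markers was 5.18 and 5.26 in the combined arrays, 5.22 and 4.98 with tamoxifen, 6.92, 5.61 and 5.56 with rapamycin, and 5.50 and 5.34 with vehicle, so rapamycin 1 stood apart in it. Their median change was -0.15 with tamoxifen (6 of 8 negative) and -0.69 under rapamycin (7 of 8 negative), with 0 of 8 called in each by limma. Averaged over rapamycin all 8 were negative, with a median of -0.41, and 1 was called lower: the transthyretin gene Ttr (-1.71 ± 0.29, adjusted p = 0.00907), which read 10.15 in parietal cells and 10.18 in the other cells. The part of liver transcripts in the apolipoprotein and Fabp1 values was not tested. Endothelial markers had medians of -0.17 and -0.53 with 0 of 8 called, and macrophage markers 0.69 and 0.15 with 1 of 8 called higher in each (Lyz2 at 1.33 ± 0.27, adjusted p = 0.0499, and Cd14 at 0.89 ± 0.17, adjusted p = 0.0327). Over all genes 1.72% and 2.45% were called in these tamoxifen comparisons, so little is read from such counts in short marker lists. The mean of 11 markers of the squamous forestomach varied within groups: 9.58 and 9.94 in the combined arrays, 10.39 and 5.11 with tamoxifen, 10.37, 9.12 and 5.57 with rapamycin, and 5.20 and 4.91 with vehicle. Between tamoxifen 2 and vehicle 2, which are alike in it, Cd36 differed by -1.60, Lpl by -1.96, Apoa1 by -1.36, Apoa4 by -2.50 and Slc16a7 by -1.25. Tamoxifen 1 less vehicle 1, which differ in it, gave -1.86, -2.90, -2.28, -3.07 and -1.85 for the same genes in that order. Apob and Fabp1 changed sign between these pairs: Apob differed by -0.66 in the alike pair and 1.58 in the unlike pair, and Fabp1 by 0.13 and -0.47. The pairs were taken by array number, and vehicle 1 is also alike to tamoxifen 2 in the squamous mean. Tamoxifen 2 and vehicle 1 read 8.15 and 10.11 for Cd36, 8.23 and 10.55 for Lpl, and 9.87 and 10.69 for Apoa1. They read 8.01 and 10.19 for Apoa4, 9.88 and 11.08 for Slc16a7, 6.80 and 6.84 for Apob, and 5.25 and 5.03 for Fabp1. The size of a difference thus depends on the pair taken. With the squamous mean as a covariate in limma, Cd36, Lpl, Apoa4 and Slc16a7 kept their calls in tamoxifen against vehicle. Apoa1, not called without the covariate (-1.82), was at -1.43 with it (adjusted p = 0.186). In rapamycin plus tamoxifen against vehicle Lpl alone kept its call (-2.60, adjusted p = 0.0144). There Apoa4 was at -2.38 (adjusted p = 0.0971), Apoa1 at -2.03 (0.263), Cd36 at -1.48 (0.137) and Slc16a7 at -1.12 (0.226). Both combined arrays lay far above both vehicle arrays in the squamous mean. In this comparison the covariate can therefore not be well separated from the treatment. Nothing is read from the calls lost or kept with the covariate, and the part of forestomach in the results was not tested.

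Across the 9 whole-stomach arrays the 5 genes that fell tracked each other, with Pearson r from 0.821 to 0.995 over 10 pairs. The closest pair was Apoa4 and Slc16a7 (0.995), Fabp1 was nearest to Apoa1 (0.764), and the highest r of Apob with any of the others was 0.153, with Cd36. The points share arrays and treatment groups, so these values describe the group pattern. Of 1217 other genes with an SD of at least 0.5 over the 9 arrays, those most like the mean profile of the 7 were Pitpnc1 (r = 0.998), B4galnt2 (0.996), Acadsb (0.995), Gpr155 (0.994), Mccc1 (0.990) and Rap1gap2 (0.988). Acadsb and Mccc1 encode mitochondrial enzymes of branched-chain amino acid breakdown, Pitpnc1 a phosphatidylinositol transfer protein and B4galnt2 a glycosyltransferase. All 6 were higher in the parietal fraction, by 2.32 (Rap1gap2) to 5.49 (B4galnt2).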

How the data were processed

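The authors deposited log2 expression per probe set, computed by RMA in Partek per the submitters' processing notes, with no version, setting or build given there. Of 41345 probe sets, 23521 had 1 gene symbol in the platform table, 1814 several and 16010 none; keeping the brightest probe set of each gene left 22180 genes, with no filter. Signal over background is not given, and the number of arrays limits precision. With limma 3.58.1 (R 4.3.3), each of the 4 whole-stomach groups had a mean and all shared a spread (5 residual degrees of freedom, prior 3.86). P-values were adjusted by Benjamini-Hochberg over all genes and called under 0.05; errors are limma standard errors. The script was tested on simulated data. Genes, lists and alternatives were chosen with earlier results of these data known. Named genes were the 7, per list and comparison up to 4 called genes of largest change or else the 2 of highest mean, and the 6 most like the mean profile; list results named here omit some of these. Promoters and gene order are RefSeq's (GRCm38.p6). Alternatives were quantile normalization, centring, a dim-gene filter, averaged or separate probe sets, only the groups compared, trend and robust fitting, the replicate block, the squamous mean as covariate, and each array left out.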

Additional observations from a re-analysis of the deposited data

How the results depend on the processing

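For tamoxifen against vehicle, 4 of the 7 genes were called in every alternative except the fit of the 4 compared arrays alone (0 called, with 2 residual degrees of freedom among arrays), those that called Apoa1 too and those that lost Slc16a7; leaving out 1 array gave 3 to 5. For rapamycin plus tamoxifen against rapamycin, 5 were called in the full fit and 2 to 5 with an array left out. For rapamycin plus tamoxifen against vehicle, 1 was called with the squamous covariate and 1 to 5 with an array left out. Averaged over rapamycin, 5 to 6 were called with an array left out, and for the other 3 comparisons 0 each time. Counts over all genes moved more. For tamoxifen against vehicle (381 called) they were 95 to 213 with an array left out, 170 with the replicate block, 151 with the squamous covariate and 711 with the dim-gene filter. For the combination against rapamycin (543) they were 39 to 643, 260 with the block, 865 with the filter and 1102 with only the groups compared. For the combination against vehicle (254) they were 17 to 376, 149 with the block, 10 with the covariate and 436 with the filter. For rapamycin against vehicle (11) they were 3 to 20, 4 with the covariate and 7 with only the groups compared, and for tamoxifen averaged (1298) 613 at the lowest, without combined array 1. The interaction (0) had 1 with the block, and the combination against tamoxifen (0) 1 without tamoxifen 2 or rapamycin 1. Whether arrays of the same number were paired was not settled: 3 of 12 such correlations of deviations passed 0.1 (-0.112 to 0.561). Among arrays of unlike number 3 of 18 did (-0.561 to 0.427). Deviations mirror each other in groups of 2 arrays, so these values repeat and cannot exclude pairing. Vehicle and tamoxifen arrays of the same number gave 0.561. With the replicate block the counts of the 7 genes were 4, 5, 0, 0, 5, 0 and 5 in the order tamoxifen against vehicle, combination against rapamycin, rapamycin against vehicle, combination against tamoxifen, combination against vehicle, interaction and tamoxifen averaged, as without it.

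Changes of sign touched only values that were not called. With the squamous covariate, Apob was at -0.16 (tamoxifen against vehicle), -0.72 (combination against vehicle) and -0.46 (tamoxifen averaged); for rapamycin against vehicle Apoa1 was at 0.16, Apoa4 at 0.0687 and Slc16a7 at 0.11, and for the combination against tamoxifen Apoa4 was at 0.17. Under quantile normalization Apoa4 was at 0.077 there and Apob at -0.00627 averaged. With the replicate block Fabp1 was at 0.0409 for rapamycin against vehicle and Apob at -0.11 averaged. With an array left out, Fabp1 ran from -0.52 to 0.18 and Apob from -0.35 to 1.27 for tamoxifen against vehicle, and Fabp1 from -0.25 to 0.0409 for rapamycin against vehicle. For the combination against tamoxifen, Apoa4 ran from -0.45 to 0.44, Apob from -0.90 to 0.72 and Slc16a7 from -0.24 to 0.41. Apob ran from -0.0541 to 0.78 for the combination against vehicle and from -0.39 to 0.42 averaged. The interaction ran from -0.19 to 0.30 for Cd36, -0.51 to 0.0660 for Lpl, -1.30 to 0.16 for Apoa1, -0.23 to 0.65 for Apoa4 and -0.12 to 0.54 for Slc16a7. The cause was not tested. Between the fractions, 6 of the 7 genes were at least 2 higher under all 4 alternatives.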
